A study of Arabidopsis thaliana with 12 samples.

Results

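Transcript levels of 8 stress-responsive transcription factor genes were followed in leaves of Arabidopsis thaliana under strong light. The 8 are the ethylene response factors ERF5, ERF6, ERF104 and ERF109, the zinc-finger genes ZAT10 and ZAT12, and the WRKY genes WRKY33 and WRKY40. They were taken by locus identifier from a table of 32833 genes, all 8 were found, and the rule itself uses no measured value. The libraries came from 2 genotypes. Col-0 is the reference accession. The tpt-2 line is a mutant of TPT, the triose phosphate/phosphate translocator that exports photosynthetic triose phosphates from the chloroplast. Plants of both genotypes grew on soil in days of 10 h of light to an age of 21 d, and every plant was moved into 500 µmol photons m-2 s-1 as a night ended. Leaves were taken 9 h or 18 h later, with 3 biological replicates of each genotype at each time, which gives 4 groups of 3 libraries. Plants left in growth light or sampled ahead of the shift are not among the libraries, and the first minutes and hours of the light treatment were not sampled. Time in strong light and hour of the day advance together here and cannot be told apart.

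Each of these families binds its own short DNA element. ERF proteins recognise the GCC box and related elements and relay ethylene, wounding and redox signals. ERF6 and ERF104 are substrates of the stress-activated MAP kinases, and rapid induction of ERF genes after a light shift has been reported to need TPT and MPK6. ZAT10 and ZAT12 are C2H2 zinc-finger proteins with an EAR repression motif that respond to high light, cold, salt and hydrogen peroxide. WRKY proteins bind the W-box. WRKY33 switches on camalexin genes in defence against necrotrophic fungi, and WRKY40 acts with WRKY18 and WRKY60 as a repressor in immunity and abscisic acid signalling. Transcripts of all these families are short-lived and are also raised within minutes by touch or wounding.

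Values are the deposited FPKM, fragments per kilobase of transcript and per 1e06 fragments, a level scaled to gene length and library depth. The depth recovered from the steps between low values ran from 12.3 to 14.3 M (M, 1e06) fragments per library, apart from 25.7 M for replicate 1 of Col-0 at 18 h. TPT itself had 328 to 465 FPKM in the 6 Col-0 libraries and 2.52 to 3.85 FPKM in the 6 tpt-2 libraries, so each library carried the genotype of its label. Leaf identity was also clear, since the mesophyll markers RBCS1A, CA1 and RCA summed to at least 22570 FPKM in every library. Col-0 replicate 3 at 9 h stood apart from its group for many stress genes, and results on the members that rest on it are given with and without it. In whole-leaf RNA, fewer cells of a type and less RNA per cell cannot be told apart.

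The sequences upstream of 5 members are shown because these genes carry the main patterns described further on. ERF104 was the 1 member that passed a test with all 12 libraries, and the other 4 stood out together in a single library. Each line gives the 250 bases before the annotated start in RefSeq's TAIR10.1, on the strand of the gene and from 5′ to 3′. Capitals mark matches, on either strand, to the W-box core TTGAC or the GCC box GCCGCC. The windows are chr5:24767733-24767982 on the minus strand for ERF104, chr1:9649324-9649573 on the minus strand for ZAT10 and chr5:24102564-24102813 on the plus strand for ZAT12. Those of WRKY33 and WRKY40 are chr2:16107985-16108234 and chr1:30383311-30383560, both on the plus strand.
ERF104: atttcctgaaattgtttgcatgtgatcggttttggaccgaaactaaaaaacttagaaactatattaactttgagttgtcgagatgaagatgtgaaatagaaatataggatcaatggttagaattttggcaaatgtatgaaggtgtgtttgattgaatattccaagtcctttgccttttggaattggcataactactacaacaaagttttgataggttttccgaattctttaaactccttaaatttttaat
ZAT10: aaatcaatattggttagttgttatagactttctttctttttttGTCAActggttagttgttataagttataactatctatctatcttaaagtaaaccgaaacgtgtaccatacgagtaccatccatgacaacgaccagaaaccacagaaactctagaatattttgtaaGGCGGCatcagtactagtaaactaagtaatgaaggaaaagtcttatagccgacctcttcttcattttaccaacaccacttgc
ZAT12: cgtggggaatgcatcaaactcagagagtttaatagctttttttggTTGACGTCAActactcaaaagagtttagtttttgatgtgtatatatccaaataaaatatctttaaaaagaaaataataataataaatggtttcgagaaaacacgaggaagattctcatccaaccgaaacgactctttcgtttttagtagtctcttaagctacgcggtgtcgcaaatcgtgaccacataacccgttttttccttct
WRKY33: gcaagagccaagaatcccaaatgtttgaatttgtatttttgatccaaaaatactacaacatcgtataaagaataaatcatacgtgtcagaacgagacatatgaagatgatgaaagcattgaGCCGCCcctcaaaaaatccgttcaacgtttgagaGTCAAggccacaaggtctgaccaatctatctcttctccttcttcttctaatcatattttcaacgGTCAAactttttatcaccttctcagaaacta
WRKY40: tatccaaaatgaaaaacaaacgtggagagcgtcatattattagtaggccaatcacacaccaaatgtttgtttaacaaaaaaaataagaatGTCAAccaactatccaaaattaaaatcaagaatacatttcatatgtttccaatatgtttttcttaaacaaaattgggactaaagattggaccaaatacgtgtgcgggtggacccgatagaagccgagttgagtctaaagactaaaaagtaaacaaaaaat
The 2 W-box cores of ZAT12 lay back to back on opposite strands, at 205 to 201 and 200 to 196 bases before the start, and did not overlap. Those of WRKY33 lay at 95 to 91 and 31 to 27 bases before the start, and its GCC box at 129 to 124. Across all 8 members, ERF5, ERF109, ZAT10, ZAT12, WRKY33 and WRKY40 held the W-box core, 6 of 8, where 44.9% of 27437 promoter windows of the same length hold it. ERF109, ZAT12 and WRKY33 held at least 2 copies, against 14.1% of all windows. The GCC box was in ZAT10 and WRKY33, against 1.87% of windows. Also searched were the G-box CACGTG, found in ERF109 and in 6.49% of windows, and the element CGCGTT, found in 0 members and in 2.59% of windows. The ERF5 window overlaps another annotated gene, AT5G47229. A match is only a run of letters, and binding was not measured.

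ERF5 (AT5G47230, chromosome 5, 19179881 to 19181182, plus strand), an activator in defence and in growth arrest under stress, was low throughout. At 9 h its levels were 1.56, 0.870 and 1.55 FPKM in Col-0, next to 1.94, 1.34 and 1.64 FPKM in the mutant. At 18 h the values were 1.41, 1.13 and 1.67 FPKM in Col-0, next to 0.563, 1.196 and 0.777 FPKM in the mutant. The genotypes overlapped at both times, and the lowest group was tpt-2 at 18 h, where 9 to 20 fragments stood behind each value, though its replicate 2 lay within the range of the others.

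ERF6 (AT4G17490, chromosome 4, 9752824 to 9754161, minus strand), a close relative of ERF5 and a MAP kinase substrate, changed sides between the time points. At 9 h the Col-0 libraries had 1.46, 0.908 and 1.40 FPKM, and the mutant libraries 1.88, 1.73 and 2.95 FPKM. At 18 h the Col-0 libraries had 1.19, 2.26 and 4.77 FPKM, and the mutant libraries 0.791, 1.05 and 0.930 FPKM. Every tpt-2 library was thus above every Col-0 library at 9 h and below every one at 18 h, where Col-0 replicate 3 was far above the others.

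ERF104 (AT5G61600, chromosome 5, 24766344 to 24767732, minus strand), which MPK6 releases in the response to flagellin, had the highest mean FPKM of the 3 ERF members that could be measured. Levels at 9 h were 2.65, 2.91 and 2.13 FPKM in Col-0, next to 3.80, 4.23 and 5.53 FPKM in the mutant. Levels at 18 h were 4.63, 4.73 and 8.78 FPKM in Col-0, next to 6.56, 4.54 and 2.41 FPKM in the mutant. The Col-0 libraries at 9 h lay below all libraries of the other groups apart from tpt-2 replicate 3 at 18 h.

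ERF109 (AT4G34410, also RRTF1, chromosome 4, 16451876 to 16453260, plus strand), a redox-responsive factor that raises reactive oxygen, was listed at 0 FPKM in 10 of 12 libraries. The other two, Col-0 replicate 3 and tpt-2 replicate 2 at 9 h, had 0.0521 and 0.0505 FPKM, worth 1 fragment each and under the limit of 3 fragments set for a measured level. Opposite-strand genes cover 64.0% of the bases of its exon, among them AT4G34412 with a mean of 8.25 FPKM. The libraries keep strand, but whether the counting used it is not given in the sources used here. Of all protein-coding genes with 50% to under 90% of their exon bases covered in that way, 72.9% had a mean under 1 FPKM, against 39.9% of those with no such overlap. For an overlap above 0 and under 50% the share was 21.9%. ERF109 was under the limit in every library, so its level was not measured. Whether low expression or the counting lies behind this was not tested. The tests below cover the other 7 members. The same overlap was 2.42% for WRKY33, 3.85% for WRKY40 and 0 for the others.

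ZAT10 (AT1G27730, also STZ, chromosome 1, 9648021 to 9649323, minus strand), a repressor induced by excess light, salt and cold, had 2.52, 3.17 and 13.0 FPKM in Col-0 at 9 h, next to 2.48, 2.74 and 5.48 FPKM in the mutant. The 18 h levels were 6.46, 8.44 and 10.5 FPKM in Col-0, next to 10.4, 9.80 and 3.46 FPKM in the mutant. Leaving aside replicate 3 at 9 h, every Col-0 value at 18 h was above every Col-0 value at 9 h.

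ZAT12 (AT5G59820, also RHL41, chromosome 5, 24102814 to 24103794, plus strand), a marker of light and oxidative stress, followed a like course. Its 9 h levels were 1.59, 2.15 and 17.7 FPKM in Col-0, next to 3.05, 5.92 and 4.96 FPKM in the mutant. Its 18 h levels were 8.02, 8.28 and 14.3 FPKM in Col-0, next to 7.88, 8.25 and 3.73 FPKM in the mutant. Replicate 3 held the highest value of Col-0 at both times and the lowest of tpt-2 at 18 h.

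WRKY33 (AT2G38470, chromosome 2, 16108235 to 16110766, plus strand) had 4.05, 2.63 and 15.1 FPKM in Col-0 at 9 h, next to 3.89, 5.38 and 5.29 FPKM in the mutant. The values at 18 h were 5.05, 5.43 and 8.76 FPKM in Col-0, next to 8.39, 6.91 and 4.33 FPKM in the mutant. Apart from the 1 high library, values ran from 2.63 to 8.76 FPKM, and the genotypes overlapped at both times.

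WRKY40 (AT1G80840, chromosome 1, 30383561 to 30385499, plus strand) varied most. Its values at 9 h were 0.354, 0.305 and 14.4 FPKM in Col-0, next to 1.13, 0.792 and 1.26 FPKM in the mutant. Those at 18 h were 1.70, 1.84 and 3.41 FPKM in Col-0, next to 4.48, 5.11 and 0.881 FPKM in the mutant. Its lowest and its highest library both belonged to Col-0 at 9 h while the mutant libraries at 9 h lay below all Col-0 libraries at 18 h.

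**Figure D1:**
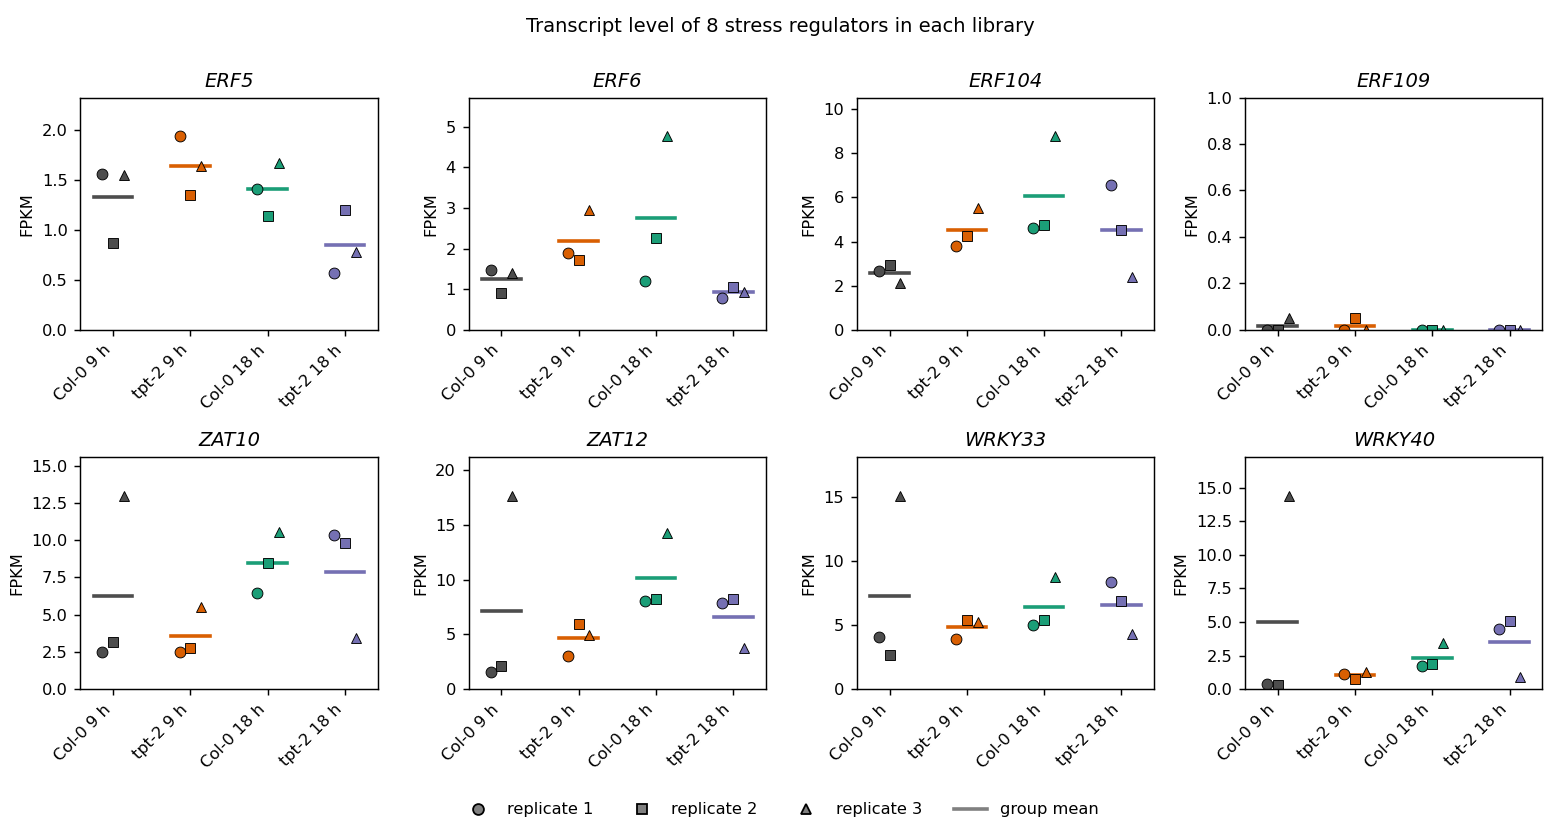
FPKM of each of the 8 genes (one panel each) in every library, by group, with replicates 1, 2 and 3 as separate symbols and the group mean as a bar. Col-0 replicate 3 at 9 h lies far above its group for ZAT10, ZAT12, WRKY33 and WRKY40, with 13.0, 17.7, 15.1 and 14.4 FPKM, and ERF109 lies at or next to 0 throughout.

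Col-0 replicate 3 at 9 h separated the members into those that were raised in it and those that were not. Its level was 43.6 times the mean of the other two libraries of its group for WRKY40, 9.45 times for ZAT12, 4.56 times for ZAT10 and 4.52 times for WRKY33. For ERF5, ERF6 and ERF104 the ratios were 1.28, 1.18 and 0.77. On the FPKM + 1 scale, 4 of the 7 members were at least 2-fold above both other libraries there, as were 1.80% of all 17585 genes that passed a filter of 1 FPKM on their mean level.

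Some genes known to respond with or below these factors stood high in the same library. Among the known targets 3 of 9 tested were at least 2-fold above both other libraries, among the ERF relatives 5 of 12 and among the WRKY relatives 3 of 22, beside the 1.80% of all genes. Of the tested ZAT relatives 0 of 5 were that high, and of the tested upstream signalling genes 0 of 10. These counts leave out listed genes under the level filter. Of those, the signalling gene OXI1 and the ZAT relatives ZAT11 and ZAT18 had 2.67, 2.15 and 1.44 FPKM there, each above all 11 other libraries. AZF1 and ZAT8, also under the filter, were not above all others, with 0.153 and 0.919 FPKM. Listed targets that were not raised include EDS1, an immunity gene, with 6.55, 6.43 and 6.55 FPKM in replicates 1 to 3, and YUC2, an auxin synthesis gene, with 1.10, 2.04 and 1.42 FPKM. PAD3 and CYP71A13, camalexin biosynthesis genes that WRKY33 activates, had 47.5 and 23.6 FPKM there, while the highest of the other 11 libraries had 2.41 and 0.782 FPKM. Both, and ORA59 among the ERF relatives, passed the filter of 1 FPKM on mean level only through this library. Their part in the counts above is therefore tied to that filter. PDF1.2, a defensin gene under ERF control, had 163 FPKM, and the highest of the other 11 had 9.72 FPKM. ERF1A reached 15.5 FPKM and WRKY75 4.10 FPKM, each above all 11 others.

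Genes raised early by touch and wounding moved with it as well. Of 18 listed, 17 were tested, 14 had their highest level of the group in this library, as did 32.6% of all tested genes, and 9 were at least 2-fold above both other libraries, beside 1.80%. CML37 and CMPG1, both among the 9, passed the level filter only through this library. The summed level of the 18 listed genes was 234.6 FPKM, against 86.9 and 96.7 FPKM in replicates 1 and 2. Summed levels of mesophyll markers were 23818 FPKM in this library and 24494 and 22570 FPKM in the others, and those of epidermis markers 222.5, 230.0 and 225.7 FPKM. Guard cell markers summed to 25.4 FPKM in this library, below the 28.2 and 33.7 FPKM of the others. Phloem companion cell markers summed to 115.0 FPKM, below 121.2 and 154.4 FPKM. The 2 seed markers were at 0 in all 3. The part of handling, wounding or infection of the sampled plants in these levels was not tested.

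**Figure D2:**
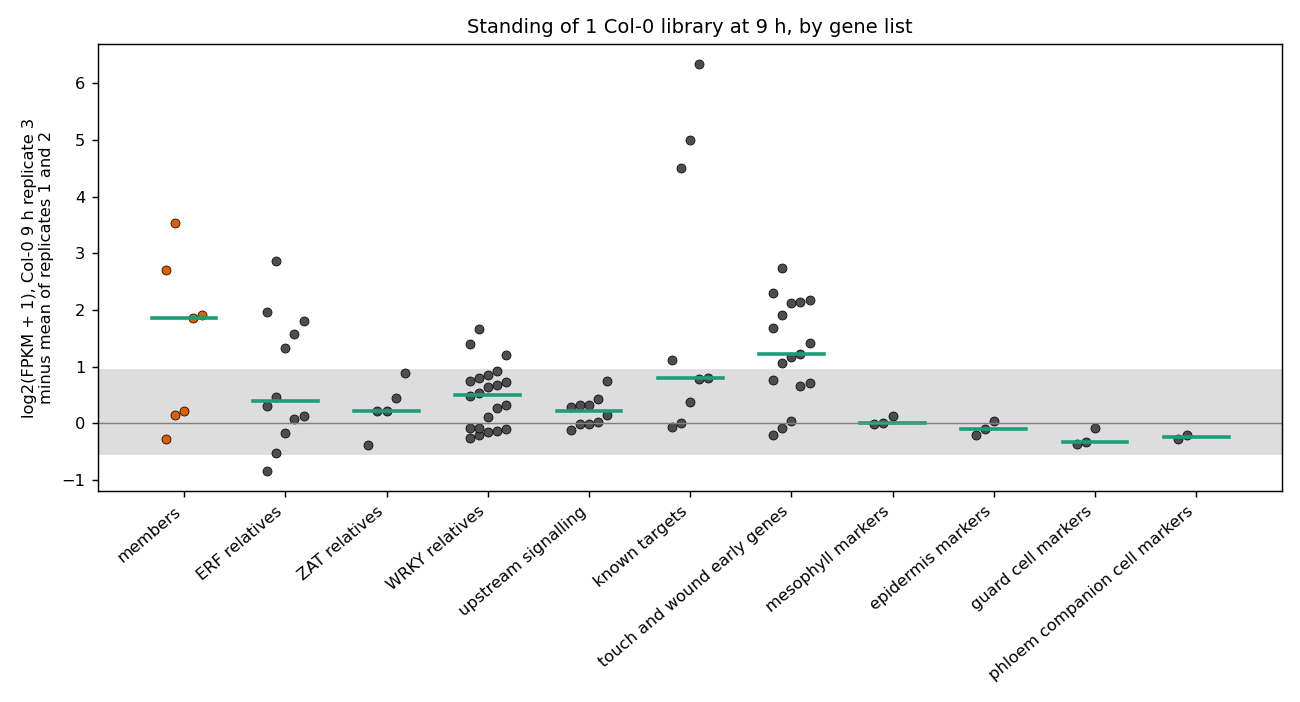
Difference in log2(FPKM + 1) between Col-0 replicate 3 at 9 h and the mean of replicates 1 and 2, one point per tested gene, for the members, each gene list and the leaf cell type markers. Bars are list medians, at 1.87 for the members, 1.22 for touch and wound early genes and 0.01 for mesophyll markers, and the grey band spans the middle 95% of all tested genes.

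Replicate 3 departed from its group at 18 h too. In Col-0 it was the highest library for all 7 tested members, where 37.1% of all tested genes had their highest value in it, and replicate 1, the deepest library, was the lowest for 6 of 7 (31.0% of all genes). In tpt-2 at 18 h, replicate 3 was the lowest for 5 of 7 (35.0%), and WRKY40 and ZAT10 were at least 2-fold below both other libraries on the FPKM + 1 scale (1.25%). In tpt-2 at 9 h, replicate 3 was the highest for 4 of 7 (30.6%).

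The first comparison asks how the mutant differed from Col-0 in strong light at each time. At 9 h none of the 7 members passed the test, and ERF104 and ERF6 came nearest, both higher in tpt-2. ERF104 averaged 2.56 ± 0.398 FPKM in Col-0 against 4.52 ± 0.899 FPKM in tpt-2 (mean ± SD, n = 3), and ERF6 1.26 ± 0.304 and 2.19 ± 0.668 FPKM. Tests were made with limma on log2(FPKM + 1), which understates changes of low genes, and a gene was called at an adjusted p under 0.05 over all 17585 tested genes. The log2 difference of ERF104 was 0.63 (SE 0.28), with a limma p of 0.0439 and an adjusted p of 0.129, and that of ERF6 was 0.49 (SE 0.29, limma adjusted p 0.253). Called were 0 of 7, against 22.3% of all tested genes, and an unadjusted p under 0.05 was reached by 1 of 7, against 35.7%. The 2 genes whose groups did not overlap, ERF6 and ERF104, compare with 23.9% of all genes that were higher in tpt-2 without overlap.

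The other 5 members had wide or small differences at 9 h. ERF5 differed by 0.19 (SE 0.19, limma adjusted p 0.514). ZAT10, ZAT12, WRKY33 and WRKY40 had log2 differences of -0.43, 0.04, -0.20 and -0.55, with SEs of 0.49, 0.60, 0.44 and 0.78. The 95% intervals of these 4 ran from at most 0.451-fold to at least 1.57-fold of FPKM + 1, so changes of either sign by 1.57-fold lay inside them. Without Col-0 replicate 3 the differences turned to 0.20, 0.95, 0.44 and 0.63 in the same order. All 7 were then positive and still none was called, where 19.0% of all tested genes were, with ZAT12 nearest at a limma adjusted p of 0.0646. That library was set aside because these 4 genes stood high in it, and leaving it out lowers their Col-0 mean. Their positive values are therefore no independent support for higher levels in tpt-2.

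At 18 h the mutant was again not called for any member. ERF6 averaged 2.74 ± 1.83 FPKM in Col-0 against 0.923 ± 0.128 FPKM in tpt-2, a log2 difference of -0.85 (SE 0.29, limma p 0.0129, adjusted p 0.128). Here 2.88% of all tested genes were called, and 20.8% reached an unadjusted p under 0.05, as 1 of the 7 members did. ERF6 was also the 1 member without overlap, and 6.86% of all genes were lower in tpt-2 without overlap. ERF5 and ERF104 had differences of -0.39 and -0.38, and ZAT10, ZAT12, WRKY33 and WRKY40 of -0.19, -0.57, 0.02 and 0.30, with limma adjusted p from 0.267 to 0.985 over these 6. The median of the 7 was -0.38, beside 0.09 over all tested genes.

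**Figure D3:**
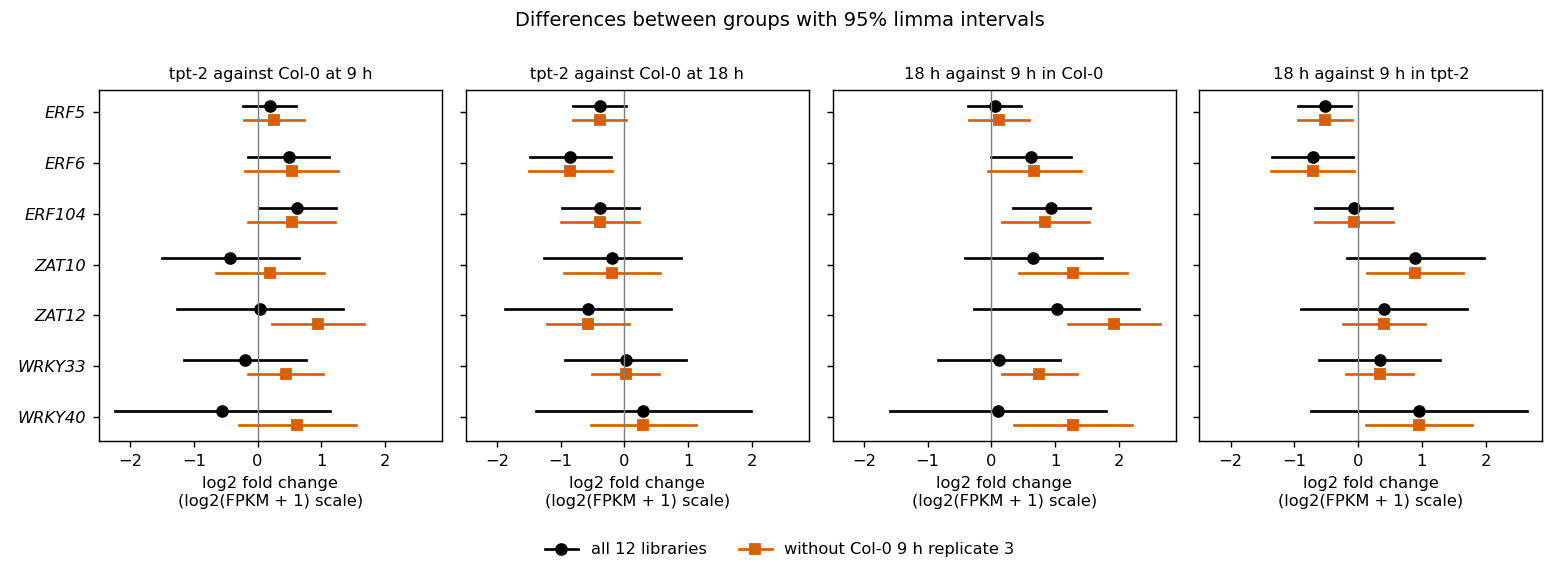
Log2 differences in FPKM + 1 of the 7 tested genes in 4 comparisons, with 95% intervals from limma as lines, for all 12 libraries (black) and without Col-0 replicate 3 at 9 h (orange). With all libraries the 1 call is ERF104 in Col-0 at 18 h against 9 h, at 0.94, and the estimates of ZAT10, WRKY33 and WRKY40 at 9 h cross 0 when that replicate is left out.

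The change with time was then compared within each genotype. In Col-0 the estimates of all 7 members were higher at 18 h, and ERF104 rose, from 2.56 ± 0.398 to 6.04 ± 2.37 FPKM, a log2 difference of 0.94 (SE 0.28, limma adjusted p 0.0243). This was 1 of 7, where 13.1% of all tested genes were called higher and 28.7% either way, and 20.1% were higher without overlap. An unadjusted p under 0.05 was reached by 1 of 7, against 39.3%. The call was lost without Col-0 replicate 1 at 9 h, replicate 3 at 9 h or replicate 3 at 18 h, where the limma adjusted p was 0.0546, 0.0662 and 0.0998. The median of the 7 log2 differences was 0.62, beside -0.01 over all tested genes. Cell type markers moved in the same comparison. All 3 mesophyll markers were called higher at 18 h, with sums of 22570 to 24494 FPKM at 9 h and 30415 to 32219 FPKM at 18 h. Of the 3 epidermis markers 2 were called lower, with sums of 222.5 to 230.0 and 157.6 to 177.6 FPKM, as was 1 of 3 guard cell markers, KAT1, with list sums of 25.4 to 33.7 and 24.5 to 26.2 FPKM. Of 2 phloem companion cell markers 0 were called, with sums of 115.0 to 154.4 and 129.4 to 154.1 FPKM. Of 3 root markers 1 was tested, PYK10, and it was called higher. The list sums were 148.3 to 197.2 and 271.9 to 322.9 FPKM, nearly all of it PYK10. IRT1 and PHT1;1, under the level filter, had lower means at 18 h, 0.0923 and 0 FPKM for IRT1 and 0.532 and 0.322 FPKM for PHT1;1. Markers also differed between genotypes. At 9 h CA1, 1 of 3 mesophyll markers, and PDF1, 1 of 3 epidermis markers, were called higher in tpt-2, beside 22.3% of all tested genes called. Epidermis sums in tpt-2 were 242.2 to 318.4 FPKM. At 18 h SUC2, 1 of 2 phloem companion cell markers, was called lower in tpt-2, beside 2.88%, with list sums of 110.7 to 114.4 FPKM. No other tested marker was called between genotypes. The part of all these shifts in the member results was not tested.

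ZAT10, ZAT12 and WRKY40 were called in Col-0, and ERF104 was not, once replicate 3 at 9 h was left out. These were 3 of 7, where 27.5% of all tested genes were called either way. That library was set aside because such genes stood high in it, and leaving it out lowers their 9 h mean. The calls gained are therefore no independent support for a rise. ZAT12, with 1.59 and 2.15 FPKM in the remaining 9 h libraries and at least 8.02 FPKM in all 18 h libraries, then had a log2 difference of 1.93 (limma adjusted p 0.00141), in place of 1.02 (SE 0.60, adjusted p 0.231). ZAT10 and WRKY40 both came to 1.28, with limma adjusted p of 0.0285 and 0.0422, in place of 0.66 and 0.11 with adjusted p of 0.356 and 0.936. WRKY33 came to 0.76, with a limma adjusted p of 0.0553. ERF6 went from 0.62 to 0.67 and ERF5 from 0.056 to 0.13, and neither was called.

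In tpt-2 no member was called with time, where 23.4% of all tested genes were. ERF5 and ERF6 were lower at 18 h in every library, with log2 differences of -0.52 (SE 0.19, limma adjusted p 0.0669) and -0.71 (SE 0.29, limma adjusted p 0.0998), and 19.3% of all genes were lower without overlap. These were the 2 of 7 with an unadjusted p under 0.05, against 35.1% of all genes. ZAT10, ZAT12, WRKY33 and WRKY40 had positive estimates, 0.90, 0.41, 0.34 and 0.96, with limma adjusted p from 0.220 to 0.680. ERF104 stood at -0.07.

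Whether the genotype difference itself changed from 9 h to 18 h was tested as the interaction. The estimate of ERF6 was -1.34 (SE 0.41), the one farthest from 0 among the members, with a limma p of 0.00696 and an adjusted p of 0.0875. ERF104 followed with -1.01 (SE 0.39, limma p 0.0250, adjusted p 0.161) and ERF5 with -0.58 (limma adjusted p 0.238). Called were 0 of 7, against 4.78% of all tested genes, and 2 of 7 had an unadjusted p under 0.05, against 21.5%. Groups separated in opposite directions at the 2 times in ERF6, as in 2.47% of all genes. The interaction estimates of ZAT10, WRKY33 and WRKY40 were positive with all libraries (0.24, 0.22 and 0.85) and negative without Col-0 replicate 3 at 9 h (-0.38, -0.42 and -0.33), and that of ZAT12 went from -0.62 to -1.52. Leaving out a library in which these genes stood high moves the estimates that way by itself.

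The precision behind these results was low compared with other genes. The SE of a genotype difference was larger than that of 82.3% of the tested genes for ERF5 and of 99.6% for WRKY40, and the median SE over all tested genes was 0.124. A p that misses the threshold here does not show equal levels.

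Each of the ERF members tested has another ERF gene close by, and ERF107 next to ERF104 was the one called between genotypes. ERF107, an ERF of the same group, lies 832 bases from ERF104 on the same strand with no gene between. Its 9 h levels were 11.0, 4.58 and 9.14 FPKM in Col-0 against 34.5, 35.6 and 29.2 FPKM in the mutant, a log2 difference of 1.95 (SE 0.26, limma adjusted p 0.000481). At 18 h it had fallen in both genotypes, to 3.05 ± 0.685 FPKM in Col-0 and 5.93 ± 1.66 FPKM in the mutant, with log2 differences of -1.13 and -2.32 (limma adjusted p 0.00650 and 5.75e-05). ERF104 had moved the other way in Col-0.

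ERF2 lies 6924 bases from ERF5 with 2 genes between, and ERF1A 5041 bases from ERF6 with none. ERF2, an activator of jasmonate-responsive defence genes, had 3.81 ± 0.734 FPKM in Col-0 against 6.79 ± 1.77 FPKM in the mutant at 9 h, a log2 difference of 0.68 (SE 0.36, limma adjusted p 0.200). Its 9 h groups did not overlap, with at most 4.47 FPKM in Col-0 and at least 5.17 FPKM in the mutant. Of all tested genes, 23.9% were higher in tpt-2 without overlap. ERF1A had 7.59 ± 7.11 and 6.74 ± 1.50 FPKM, with the 15.5 FPKM of Col-0 replicate 3 in the first mean.

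**Figure D4:**
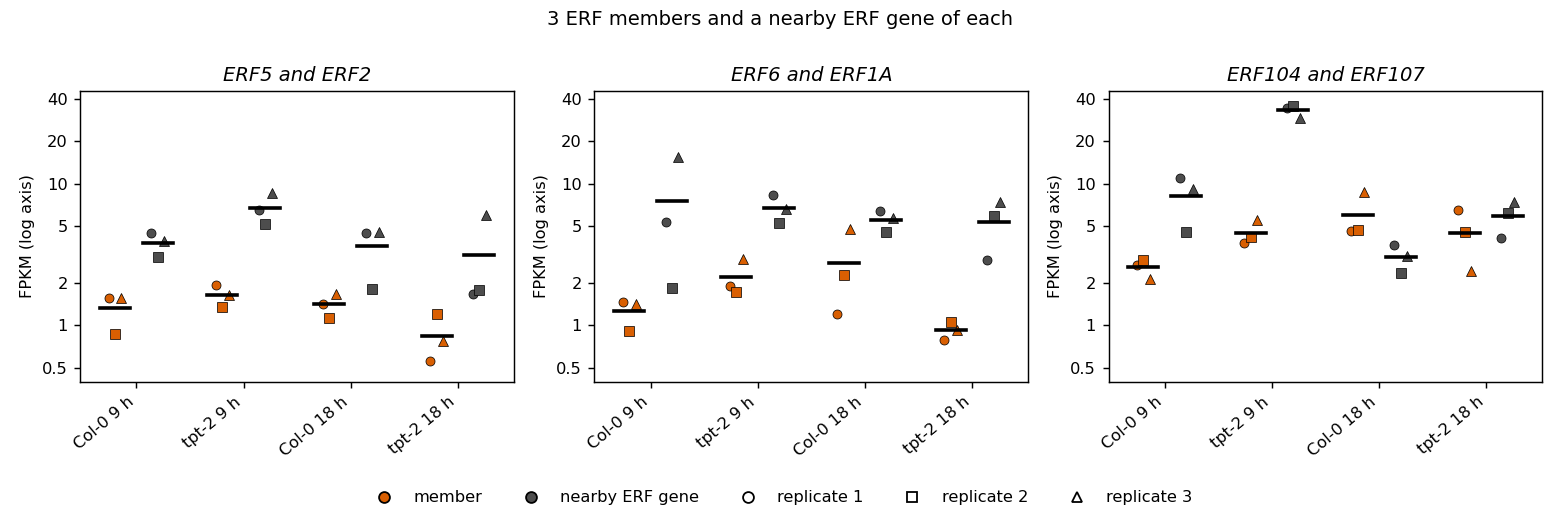
FPKM on a log axis of ERF5, ERF6 and ERF104 and of the nearby genes ERF2, ERF1A and ERF107 in every library, with group means as bars. ERF107 is highest in tpt-2 at 9 h, at 29.2 to 35.6 FPKM, and ERF104 there has 3.80 to 5.53 FPKM.

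Relatives of the members are described by family, each count beside the share over all tested genes. Of 21 ERF relatives, 12 passed the level filter, and at 9 h the calls were 3 higher in the mutant and 0 lower, beside 22.3% of all tested genes called either way. Besides ERF107 these were DREB2A, a drought and heat activator with 5.99 ± 0.463 FPKM in Col-0 against 9.55 ± 1.71 FPKM in the mutant (limma adjusted p 0.0102), and ERF8, a repressor, 4.58 ± 1.10 and 7.22 ± 0.712 FPKM (limma adjusted p 0.0170). DREB2A was also the 1 of 12 tested ERF relatives called in the interaction, beside 4.78% of all tested genes, at -0.79 (SE 0.19, limma adjusted p 0.0369). With time the calls in Col-0 were 3 lower and 0 higher (4 and 1 without Col-0 replicate 3 at 9 h), where 28.7% of all genes were called either way, among them the cold regulator CBF3, which fell from 8.89 ± 2.97 to 0.952 ± 0.232 FPKM (log2 difference -2.30, limma adjusted p 3.80e-05).

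Of 29 WRKY relatives 22 were tested, and at 9 h the calls were 2 higher and 1 lower in the mutant, 3 of 22 beside the same 22.3%. WRKY60, the partner of WRKY40, had 1.34 ± 0.735 FPKM in Col-0 against 3.50 ± 0.364 FPKM in the mutant (log2 difference 0.98, limma adjusted p 0.0192). WRKY26, a heat-response activator, had 0.509 ± 0.303 and 2.25 ± 1.19 FPKM (limma adjusted p 0.0396). At 18 h its means were 0.340 FPKM in Col-0 and 1.19 FPKM in the mutant. It passed the level filter only through the mutant libraries at 9 h, so its call is tied to that filter. WRKY17, a repressor of basal resistance, had 12.3 ± 1.39 and 7.63 ± 1.60 FPKM (limma adjusted p 0.00737). Among 5 tested ZAT relatives of 9, 0 were called between genotypes, but 1 was called higher in the mutant at 9 h without Col-0 replicate 3, beside 19.0% of all tested genes called either way. ZAT5 rose with time in both, from 1.14 ± 0.217 to 7.68 ± 0.512 FPKM in Col-0 (limma adjusted p 2.06e-06). The median log2 difference at 9 h was 0.11 for the ERF, 0.024 for the WRKY and 0.19 for the ZAT relatives, beside 0.07 over all tested genes. Without Col-0 replicate 3 at 9 h the medians were 0.42, 0.22 and 0.26, beside 0.075. That library was set aside because many such genes stood high in it, so values without it are no independent support for higher levels in the mutant. At 18 h, 0 of the relatives in the 3 families were called between genotypes, beside 2.88% of all tested genes.

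Upstream of the members, 10 of 11 listed signalling genes were tested. At 9 h 1 was called higher and 1 lower in tpt-2, beside 22.3% of all tested genes called either way. CAMTA3, a calmodulin-binding activator of the rapid stress response, was higher in tpt-2 at 9 h, with 11.1 ± 0.677 FPKM against 7.08 ± 1.12 FPKM (log2 difference 0.59, limma adjusted p 0.00299). RBOHD, the NADPH oxidase of stress-induced reactive oxygen, was lower in tpt-2 at 9 h, with 10.2 ± 0.429 FPKM against 18.1 ± 6.08 FPKM (-0.73, limma adjusted p 0.0103). It rose with time in both genotypes, to 23.9 ± 1.96 FPKM in tpt-2 and 26.4 ± 2.67 FPKM in Col-0. The Col-0 groups overlapped, with up to 25.1 FPKM at 9 h and from 24.0 FPKM at 18 h. Of 12 listed target genes 9 were tested, and 1 of 9 was called between genotypes at 9 h, beside 22.3% of all tested genes. It was ACS6, an ethylene synthesis gene, lower in tpt-2 (-0.55, limma adjusted p 0.0186), a call lost without Col-0 replicate 3 (0.0656). At 18 h 0 of 9 were called, beside 2.88%. Of the 17 touch and wound genes tested, 0 were called between genotypes at 9 h, and 4 were called higher in tpt-2 without that replicate, where 19.0% of all genes were called. These genes stood high in the replicate left out, so calls gained without it are no independent support. With time in Col-0, TCH3, SZF1 and SZF2 were called higher, TCH3 from 8.18 ± 6.71 to 25.8 ± 5.83 FPKM (log2 difference 1.76, limma adjusted p 0.0125), and without it 5 of 17 were, beside 27.5% of all genes. The median log2 difference of the touch and wound genes in that comparison was 0.063 with all libraries and 0.45 without that replicate, beside -0.01 over all tested genes.

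Over the 12 libraries the ZAT and WRKY members followed the mean of the other members more closely than the ERF members did. The Pearson correlation of a member's log2(FPKM + 1) with the mean of the other standardised members was 0.86 for ZAT12, 0.77 for WRKY33, 0.74 for ZAT10 and 0.69 for WRKY40, and 0.43 for ERF6, 0.40 for ERF104 and 0.17 for ERF5. These values describe libraries that share the departures of replicate 3, and they do not measure how the genes of 1 family vary with each other. The genes outside the list whose levels were most like the mean of the 7 members were MSRB6, SCL13, AT5G48655, AT1G66090, WAKL7 and TET8, with Pearson r from 0.86 to 0.90 and Spearman rho from 0.87 to 0.92 over the 12 libraries. MSRB6, a methionine sulfoxide reductase gene, had group means of 154 to 197 FPKM, and AT1G66090 had 9.61 FPKM in Col-0 replicate 3 at 9 h and a mean of 0.788 FPKM in the other two.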

How the data were processed

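Messenger RNA of 12 leaf libraries was enriched on poly-T beads and made into directional dUTP libraries, per the labels' protocols. The submitters' processing notes name CASAVA, HISAT2 2.0.5, featureCounts 1.5.0-p3, DESeq2 1.20.0 and TAIR10, without a role for each. The authors deposited 1 table of FPKM values, and all 12 value columns matched a sample title. These values were used without further scaling.

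A filter on a mean level of 1 FPKM kept 17585 of 32833 genes, 7 of the 8 members among them. A model of 4 groups was fitted to log2(FPKM + 1) with limma 3.58.1 in R 4.3.3 (eBayes with trend), and two-sided p-values were adjusted after Benjamini and Hochberg across the tested genes. Python 3.11.15 with numpy 2.4.6, pandas 2.3.3, scipy 1.17.1 and matplotlib 3.10.9 did the rest. The procedure was tested on simulated data.

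Depth came from steps between low FPKM values and mean transcript lengths, and 99.5% to 99.6% of low values were whole within 0.05 fragments. A count below 3 fragments was taken as not measured, which covers counting error only. Depth does not include variation among plants. No libraries were duplicates, with 0 shared values in 12 pairs.

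The members, gene lists and alternatives were chosen with earlier results of these data known. Named genes were the 8 members, up to 3 called genes of largest change per list and comparison, TPT and the 6 genes most like the members. Genes named for their level in Col-0 replicate 3 at 9 h (PAD3, CYP71A13, PDF1.2, WRKY75, ERF1A, ORA59, CML37, CMPG1, EDS1, YUC2, OXI1, ZAT11, ZAT18, AZF1 and ZAT8 there), and the ERF genes beside members, were chosen after their values were seen. There were 22 alternatives, of which 12 left out 1 library each. Gene positions and promoter windows are from the RefSeq annotation of TAIR10.1.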

Additional observations from a re-analysis of the deposited data

Results flagged for a closer look

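The genotype difference of ERF6 had opposite directions at the 2 times. All 3 tpt-2 libraries were above all 3 Col-0 libraries at 9 h and below them at 18 h, and the log2 interaction was -1.34 (SE 0.41). The difference was tested and did not pass with all 12 libraries, at a limma adjusted p of 0.0875. Over the alternatives that adjusted p ran from 0.0407 to 0.170, and it was under 0.05 only without Col-0 replicate 1 at 18 h. The levels rested on few fragments, and Col-0 at 18 h spread from 1.19 to 4.77 FPKM.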

How the results depend on the processing

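Of 35 member results, the direction and the side of the threshold held in 697 of 743 recomputed values. In many of these the direction could not change, since leaving out a library outside a comparison leaves its log2 difference as it was. The share that held therefore overstates how steady the results are. Genotype calls among members stayed at 0 of 7 at 18 h in every alternative, and at 9 h rose to 1 (ERF104, limma adjusted p 0.0389) when only the 6 libraries compared were fitted. The call count with time in tpt-2 became 1 under quantile normalization, 1 with only its own libraries and 1 without the variance trend. In Col-0 it became 0 with a filter of 5 FPKM, which ERF104 did not pass. Leaving out 1 library gave 0 to 0 calls at 9 h, 0 to 0 at 18 h, 0 to 1 for the interaction, 0 to 3 with time in Col-0 and 0 to 1 in tpt-2. The calls gained that way, beside those in the report, were ERF6 for the interaction and with time in Col-0 without Col-0 replicate 1 at 18 h. In tpt-2 they were ERF6 without Col-0 replicate 1 or 3 at 18 h, and ERF5 without Col-0 replicate 2 at 9 h or tpt-2 replicate 2 at 18 h.

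Signs near 0 turned. ZAT12 at 9 h was -0.088 under quantile and -0.027 under median-ratio scaling, and WRKY33 at 18 h was -0.13 and -0.069. When 1 library was left out, the log2 differences at 9 h ran from -0.80 to 0.20 for ZAT10, -0.48 to 0.95 for ZAT12, -0.63 to 0.44 for WRKY33 and -1.15 to 0.63 for WRKY40. At 18 h they ran from -0.43 to 0.25 for ZAT10, -0.16 to 0.25 for WRKY33 and -0.011 to 0.84 for WRKY40. Interactions ran from -0.38 to 0.68 for ZAT10, -0.42 to 0.65 for WRKY33 and -0.33 to 1.45 for WRKY40. With time in Col-0 the range was -0.095 to 0.14 for ERF5, -0.32 to 0.76 for WRKY33 and -0.50 to 1.28 for WRKY40, and in tpt-2 -0.33 to 0.24 for ERF104. The cause was not tested.

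No clear pairing by replicate number was seen. The 18 same-number correlations of deviations ran from -0.34 to 0.14, with 5 over 0.1, and the best match had the same number in 14 of 36 comparisons. With 3 libraries per group these values cannot exclude a batch shared by number. A replicate block left 0, 0, 0, 1 and 0 members called in the 5 comparisons. Low fragment numbers limit ERF5, ERF6 and WRKY40, and ERF109 could not be tested.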

Other observations

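The genes raised most in Col-0 replicate 3 at 9 h over the other two libraries of its group, chosen after their values were seen, were defence genes. PDF1.2, PDF1.2c and PDF1.3, defensin genes of near-identical sequence whose reads are uncertain, had 163, 88.1 and 62.0 FPKM there and at most 1.12 FPKM in the other two. NATA1, an acetyltransferase gene of the jasmonate response, had 90.6 FPKM there, 0.999 and 1.33 FPKM in the other two, and up to 25.9 FPKM at 18 h. TPS04, which makes the precursor of a volatile homoterpene, had 33.9 FPKM there and at most 0.350 FPKM in the tpt-2 libraries at 9 h.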
